A study of Cavia porcellus with 30 samples.

Results

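Mercuric chloride (HgCl2) is a nephrotoxic salt, and the difference described here is how much its effect on the kidney transcriptome changed between 9 and 33 h after a single high dose. For each transcript the high-dose effect at 33 h (high dose against vehicle) was compared with the high-dose effect at 9 h, and the transcripts for which they differed were divided into growing, fading, late and reversed responses. The comparison rested on 20 of the 30 animals of the series, in 4 groups of 5 samples. The high-dose groups were male Hartley guinea pigs given 1.50 mg/kg HgCl2 by intraperitoneal injection and sampled at 9 or 33 h, and the vehicle groups were male Hartley guinea pigs given saline and sampled at the same times. A jugular catheter was placed in all of these animals, the controls included. The other 10 animals received 1.00 mg/kg, in a group of 5 at each time, and serve below as animals in which the same transcripts were measured without entering the comparison. The animals' age at sampling was not given in the labels.

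Inorganic mercury binds thiol groups and accumulates in the kidney, mainly in the epithelium of the proximal tubule, which reabsorbs most of the filtrate and is the segment most readily damaged by it. Early responses of injured tubules typically include genes that defend against oxidants, bind metals or refold proteins, and later responses typically include loss of transport functions, inflammation and repair. Whole kidneys were powdered, so each sample mixed all segments and cell types, and fewer cells of a type cannot be told apart from less RNA per cell.

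Expression was measured per transcript as estimated counts. The files list 25824 transcripts by Ensembl transcript identifier without gene names, and none of these identifiers matched the gene table at hand, so transcripts are named by identifier and the labelled tissue was not checked against kidney markers. The 20 libraries held between 23134713 and 36072327 estimated counts, with a median of 27403141. The correlation of log2 levels between animals of a group lay between 0.937 and 0.964 over all 6 groups. The 9 h vehicle group holds animals numbered 31, 32, 58, 59 and 60, the last 3 of which stand outside the run of numbers of the other groups, and in animal 59 a single transcript, ENSCPOT00000025542.2, took 13.7% of all counts. Class sizes and named transcripts that changed class without animals 31 and 32, or without animals 58, 59 and 60, are given with both values. Nothing in the labels says whether those numbers mark a separate cohort or date.

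The high-dose effect differed between 33 and 9 h for 4043 of the 19729 transcripts tested, which is 20.5% of them, at an adjusted p of at most 0.1 (edgeR quasi-likelihood test with Benjamini-Hochberg adjustment). The difference was positive for 2007 transcripts (10.2%) and negative for 2036 (10.3%). Without 9 h vehicle animals 58, 59 and 60 it was positive for 1890 and negative for 1320, and without animals 31 and 32 for 1648 and 1474. The cause of these shifts was not tested. The difference between times was mostly modest: the median size was 0.54 on the log2 scale, 918 transcripts differed by 2-fold or more, 295 by 4-fold or more and 155 by 8-fold or more. Many of the largest fitted values belonged to scarce transcripts. Of the 155, 34 reached an average level of 1 on the log2 CPM scale (read counts scaled to library size), and all 34 kept their call whichever of the 20 animals was left out. The largest fitted difference, -14.93, belonged to a transcript with 200 counts in all, found in 3 of the 20 animals. Across the whole list, 2945 transcripts kept their call whichever animal was left out. Transcripts nearest the threshold had ordinary sizes, with ENSCPOT00000023470.2 the last to pass (0.63, adjusted p = 0.0999) and ENSCPOT00000023856.2 the first not to (0.81, adjusted p = 0.1001).

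The change between times was usually larger in high-dose animals than in their controls. High-dose kidneys at 33 h differed from high-dose kidneys at 9 h for 7022 transcripts (35.6% of those tested, 17.2% higher and 18.4% lower at 33 h), and 91.1% of the 4043 were among them. Vehicle kidneys at 33 h differed from vehicle kidneys at 9 h for 0 transcripts by edgeR, although 1903 had an unadjusted p under 0.05 where 5% of those tested is 986, and DESeq2 called 180 and limma 0. Without vehicle animals 31 and 32 edgeR called 452 of them. For 330 of the 4043 transcripts (8.16%) the fitted change between times was larger in vehicle than in high-dose animals, against 6099 of all transcripts tested (30.9%), a comparison in which the 4043 were chosen by the contrast itself. By class as defined below, the share was 16.2% among fading, 5.79% among late, 6.88% among reversed and 0.622% among growing transcripts.

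Each transcript was then placed by whether its high-dose effect passed the test at 9 h, at 33 h or at both, in the same fit of 20 animals. At 9 h 7861 transcripts passed (39.8%), with 20.3% of those tested higher and 19.6% lower than vehicle. At 33 h 9198 passed (46.6%), with 23.2% higher and 23.4% lower. A response was termed growing where it passed at both times in the same direction and was larger at 33 h, fading where it passed at 9 h and at 33 h was smaller in the same direction or no longer passed, late where it passed at 33 h only, and reversed where it passed at both times in opposite directions. Late responses were the most numerous, with 1797 transcripts (44.4% of the 4043). Fading responses followed with 1118 (27.7%), growing responses with 643 (15.9%) and reversed responses with 407 (10.1%). The remaining 78 (1.93%) passed at neither time, and the fitted effects of all 78 had opposite signs at the 2 times.

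**Figure D1:**
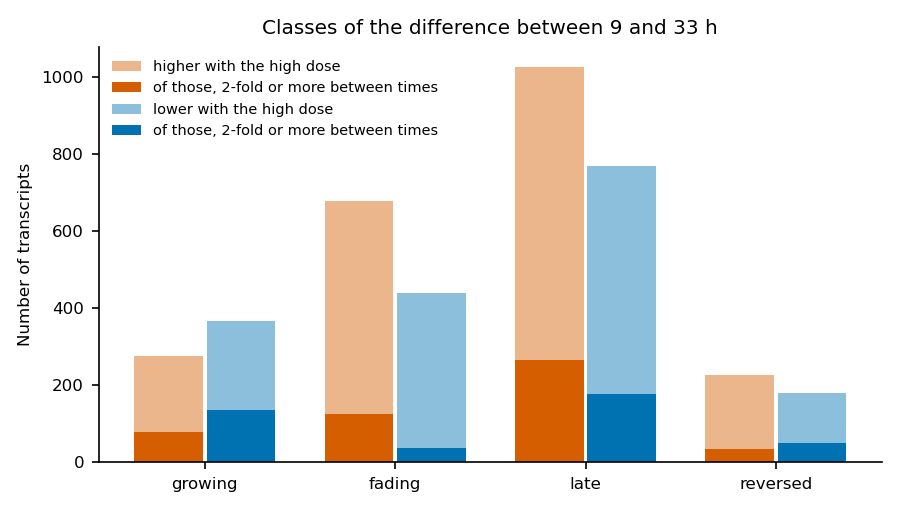
Number of transcripts in each class, split by whether the high dose raised or lowered them (direction at 33 h for growing, late and reversed, at 9 h for fading), with the part that differed by 2-fold or more between times in the darker shade. Late responses form the tallest bars (1027 raised, 770 lowered), and growing responses have the highest share of 2-fold differences, 213 of 643.

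The direction of the response was not evenly spread over the classes. More late transcripts were higher than lower with the high dose at 33 h (1027 against 770). Fading transcripts had mostly been raised at 9 h (679 against 439). Growing transcripts were more often lowered (368 against 275). Among reversed transcripts, 228 went from lower at 9 h to higher at 33 h and 179 went from higher to lower.

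**Figure D2:**
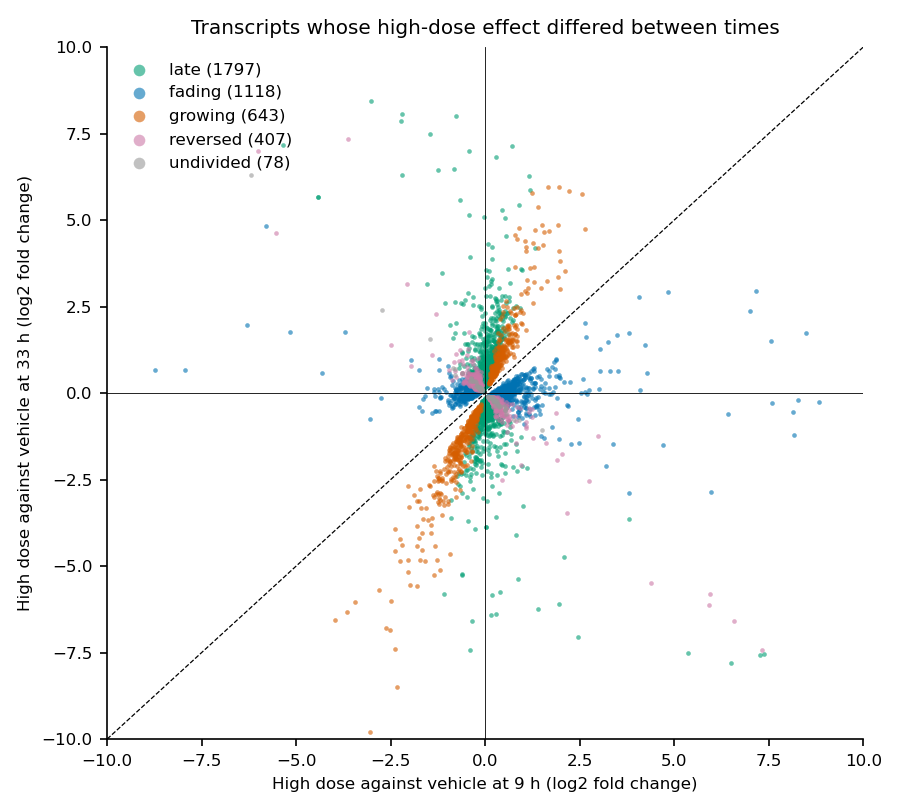
Fitted high-dose effect against vehicle at 9 h (x axis, log2 fold change) and at 33 h (y axis, log2 fold change), 1 point for each of the 4043 transcripts, coloured by class, with equality as the dashed diagonal. Late transcripts lie along the vertical axis, fading ones along the horizontal axis, growing ones between the diagonal and the vertical axis, and reversed ones in the upper left and lower right quadrants.

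The size of the classes depended on the 9 h vehicle animals and on the threshold. Without animals 58, 59 and 60 the number of growing transcripts was 176, of fading ones 646, of late ones 2041 and of reversed ones 267, with 4547 transcripts passing at 9 h. Without animals 31 and 32 the same numbers were 442, 856, 1460 and 331. At an adjusted p of at most 0.05 they were 381, 709, 1470 and 237. Late responses were the largest class in each of these settings.

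Not passing at a time did not make the effect there 0. Of the 1797 late transcripts, 340 had an adjusted p between 0.1 and 0.2 at 9 h, while 819 were above 0.5. The fitted 9 h effect was under 1.2-fold in 1477 of them, and it pointed the same way as at 33 h in 822. Of the 979 fading transcripts that no longer passed at 33 h, 165 had an adjusted p between 0.1 and 0.2 there, 470 were above 0.5 and 867 had an effect under 1.2-fold. Divided by the fitted values alone, with no test at either time and hence no late class, the 4043 transcripts fell into 1465 growing, 497 fading and 2081 reversed.

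By the rule of the class, growing responses passed at 9 h and were larger at 33 h, at the median 2.44 times as large on the log2 scale. The 275 transcripts raised at both times had a median high-dose effect of 0.42 at 9 h and 1.12 at 33 h, and the 368 lowered ones had medians of -0.63 and -1.42. The lowered ones were abundant transcripts. Their median level in vehicle kidneys was 52 TPM (a level that allows for transcript length and library size). That median was 7.09 for all transcripts tested, 14.6 for the 4043 called and 12.1 for the raised growing ones. Together the lowered ones made up 10.5% ± 0.194 of all TPM in 9 h vehicle kidneys and 10.4% ± 0.381 in 33 h vehicle kidneys (SD, n = 5 each). The same transcripts made up 7.69% ± 1.3 of TPM in high-dose kidneys at 9 h and 4.59% ± 0.433 at 33 h. The 275 raised transcripts moved from 2.34% ± 0.338 of TPM at 9 h to 4.46% ± 0.4 at 33 h for the high dose, with 1.7% ± 0.179 and 1.84% ± 0.12 in vehicle kidneys.

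The animals of the high-dose group were uneven at 9 h and even at 33 h in these growing responses. The mean level of the 368 lowered transcripts, relative to vehicle kidneys of the same time, was -1.06, -0.35, -1.13, -0.41 and -1.12 on the log2 scale in the 5 high-dose animals at 9 h (numbered 38 to 42). Animals 39 and 41 were thus nearer to vehicle than the other 3. At 33 h the same mean lay between -1.93 and -1.49 in all 5 animals. For the 275 raised transcripts animals 39 and 41 stood at 0.32 and 0.25 against 0.66 to 0.73 in the other 3, and the 33 h animals stood between 1.34 and 1.63. Animals 39 and 41 were also nearest to vehicle at 9 h in fading responses. They stood at 0.51 and 0.53 against 0.78 to 0.91 for the raised set, and at -0.35 and -0.36 against -0.59 to -0.62 for the lowered set.

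**Figure D3:**
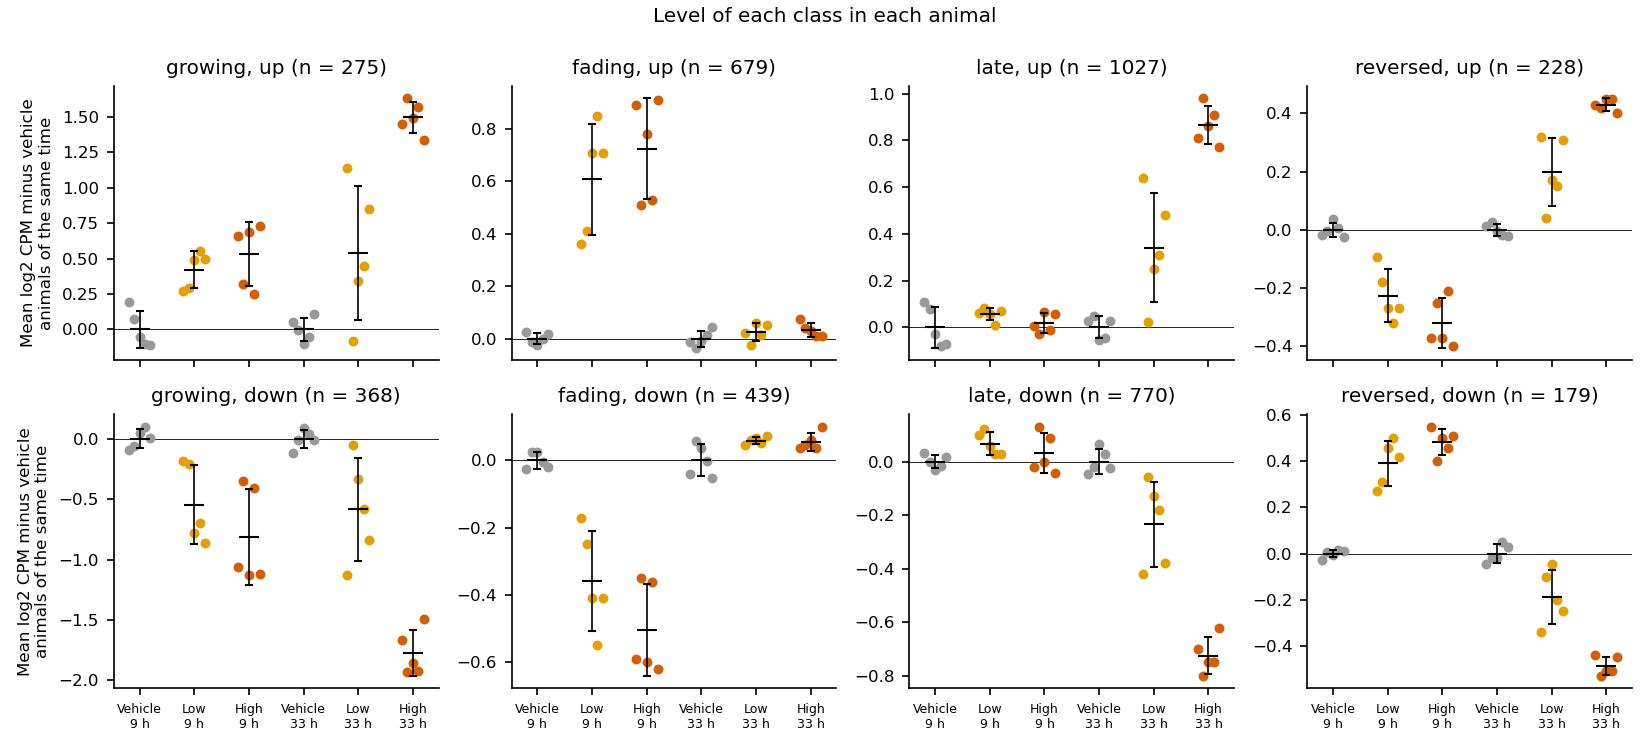
Mean log2 CPM of the transcripts of each class and direction in each of the 30 animals, minus the mean of the vehicle animals of the same time (y axis, log2 units; the scale differs between panels), with bars for the mean and SD of each group of 5. The classes were defined on the vehicle and high-dose animals, so those points are a description, and the low-dose points share the same vehicle animals as their reference.

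The named transcripts below are the 2 with the largest differences in each class and direction, among those that reached a mean log2 CPM of 1 and kept their call whichever animal was left out. Levels are CPM adjusted for library composition. Since the class was defined on these animals, the values describe the response and are not further evidence for it. Roles are not given, because the files pair no identifier with a gene name. For 3 of the 16 a gene identifier and the number of the rat gene matched to it are given as the study paired them.

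ENSCPOT00000044672.1 had the largest increase among the named growing responses. In vehicle kidneys it stood at 7.34, 4.04, 2.38, 3.54 and 5.27 CPM at 9 h and at 4.92, 3.38, 3.83, 4.33 and 5.27 at 33 h. In high-dose kidneys it stood at 8.02, 5.72, 14.4, 3.2 and 11 CPM at 9 h and at 104, 115, 133, 147 and 97.8 at 33 h. The 9 h groups overlapped and the 33 h groups were far apart. Its effect was 1.86-fold at 9 h (log2 0.89 ± 0.314 SE, adjusted p = 0.036) and 27.3-fold at 33 h (4.77 ± 0.335, adjusted p = 2.0e-08), a difference of 3.88 ± 0.445 (edgeR adjusted p = 2.5e-05). Without high-dose animal 40 the 9 h effect was 0.61 and did not pass (adjusted p = 0.15), and the transcript was then late.

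ENSCPOT00000041519.1 (gene ENSCPOG00000003429, matched to rat Entrez gene 116640) followed the same course at a higher level. Vehicle kidneys lay between 34.3 and 71.8 CPM at 9 h and between 43.6 and 69.2 at 33 h. High-dose kidneys lay between 53.9 and 133 CPM at 9 h and between 1040 and 1458 at 33 h. The effect was 1.71-fold at 9 h and 23.5-fold at 33 h, with a difference of 3.78 ± 0.341 on the log2 scale (edgeR adjusted p = 2.9e-06). Without vehicle animals 58, 59 and 60 this transcript and ENSCPOT00000044672.1 were both late, with differences of 4.14 and 4.21.

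ENSCPOT00000009386.3 had the largest decrease of any named transcript. Vehicle kidneys held 445, 437, 1013, 913 and 759 CPM at 9 h and 479, 296, 450, 323 and 440 at 33 h. High-dose kidneys held 28.7, 214, 37.6, 115 and 36.7 CPM at 9 h and 0.459, 0.199, 0.374, 0.649 and 0.58 at 33 h. High-dose animals were below vehicle animals at both times without overlap, and animals 39 and 41 held the highest 9 h values of the high-dose group. The level was 8.28-fold lower at 9 h (log2 -3.05 ± 0.464, adjusted p = 0.00013) and 885-fold lower at 33 h (-9.79 ± 0.693, adjusted p = 2.0e-08), where 6 to 19 estimated counts per library remained. The difference between times was -6.74 ± 0.789 (edgeR adjusted p = 3.0e-05), with -6.07 without animal 39 and -7.41 without vehicle animals 58, 59 and 60.

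ENSCPOT00000025515.2 fell with it. Vehicle kidneys lay between 258 and 414 CPM at 9 h and between 229 and 325 at 33 h. High-dose kidneys lay between 16.2 and 120 CPM at 9 h and between 0.829 and 4.84 at 33 h, apart from vehicle at both times. The effect went from 5.76-fold lower to 115-fold lower, with a difference of -4.32 ± 0.686 on the log2 scale (edgeR adjusted p = 0.00039).

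**Figure D4:**
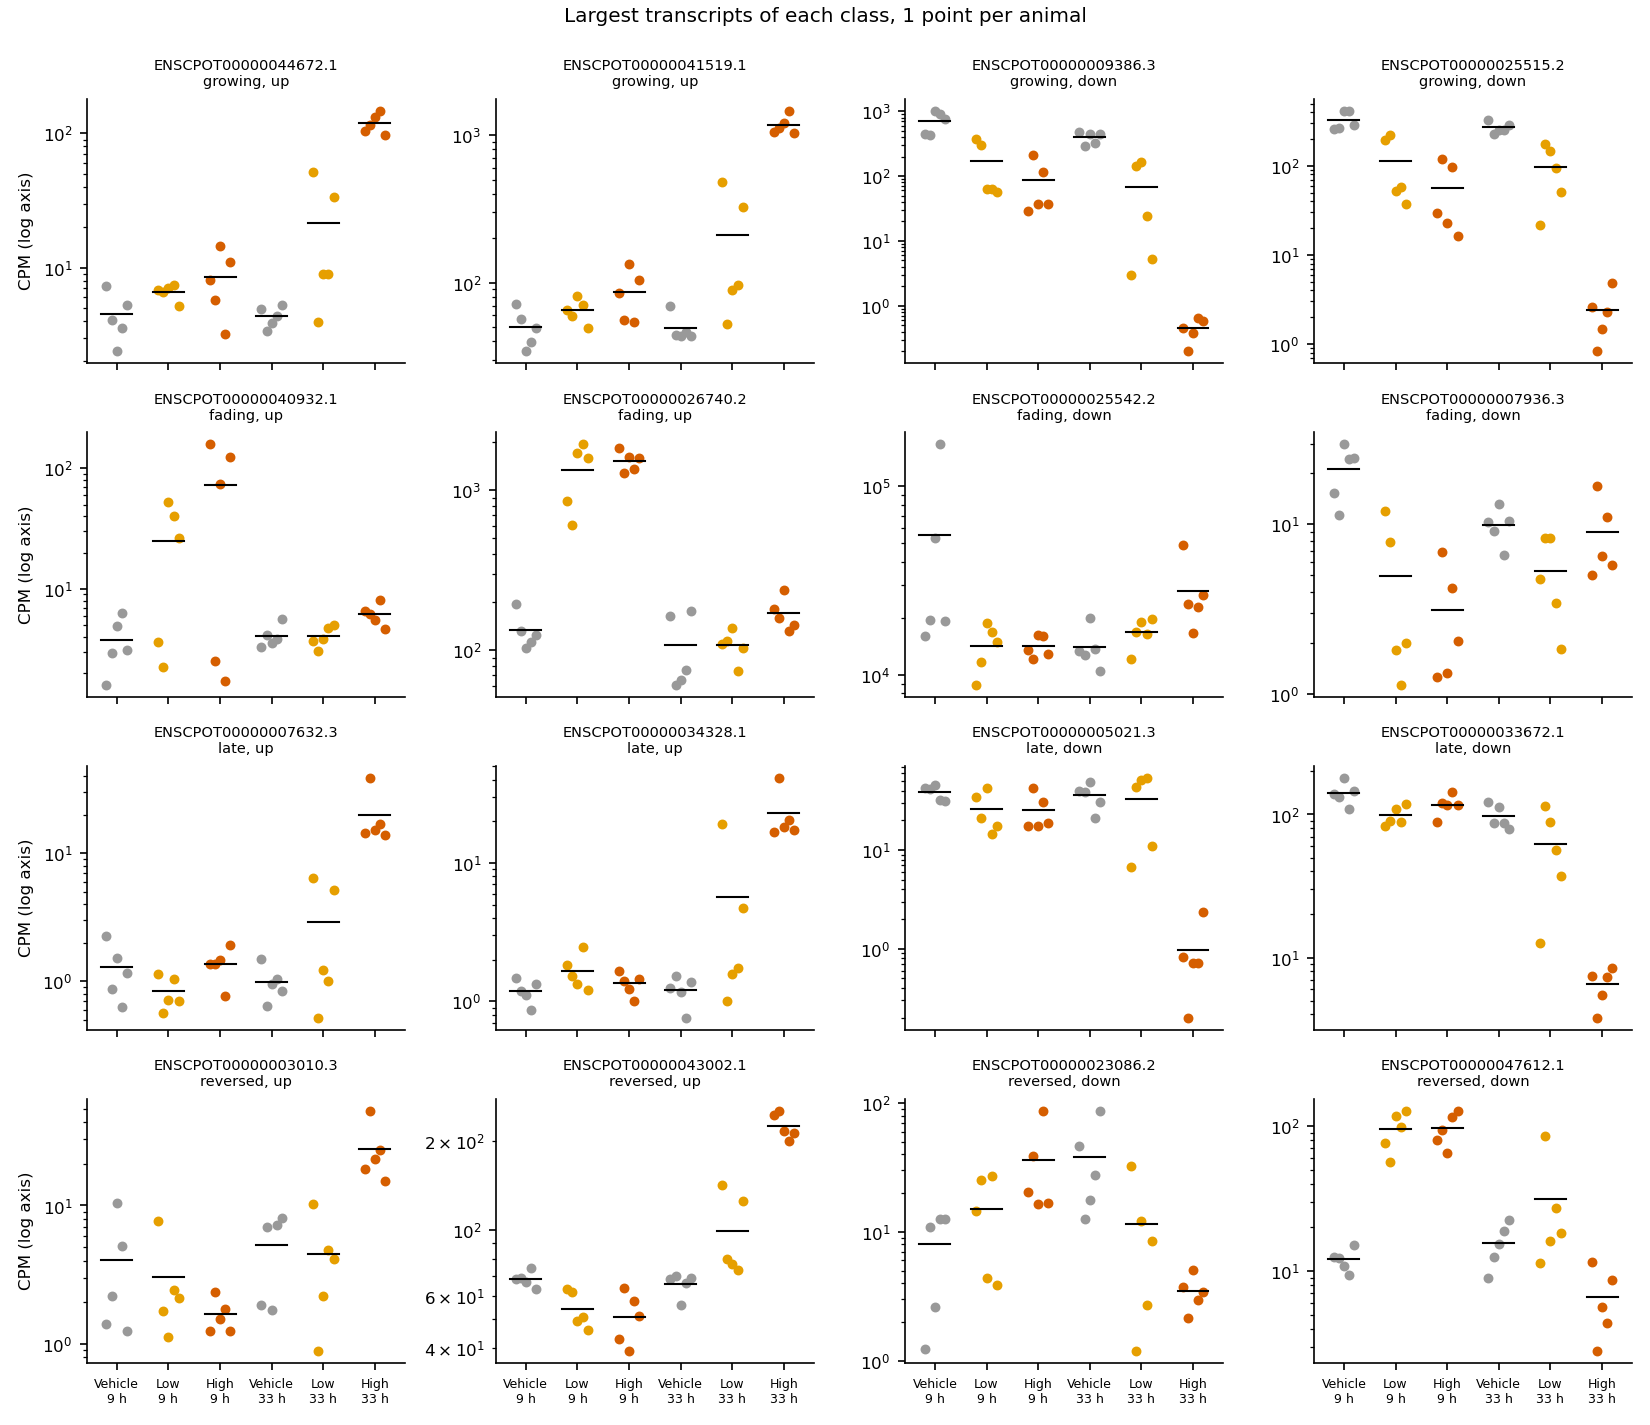
CPM (log axis) of the 16 named transcripts in each of the 30 animals, 1 point per animal, with a bar at the mean of each group of 5. In the top row the 33 h high-dose animals stand apart from all other animals, and in the panel of ENSCPOT00000040932.1 2 of the 5 high-dose animals at 9 h stand at the vehicle level.

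Fading responses mostly had a small effect at 33 h, as the rule of the class favours. Not passing there does not show a return to the vehicle level. Of the 1118, 979 no longer passed the test at 33 h, and 139 still passed with a median effect 0.40 times that at 9 h on the log2 scale. The 679 transcripts raised at 9 h had a median effect of 0.50 there and -0.0047 at 33 h. The 439 lowered at 9 h had medians of -0.39 and 0.0339. The median size of the difference between times was 0.44, against 0.55 for late, 0.60 for reversed and 0.73 for growing transcripts, and 163 differed by 2-fold or more. As a share of all TPM the raised set was large at 9 h: 7.39% ± 0.853 in high-dose against 2.48% ± 0.0902 in vehicle kidneys (SD, n = 5 each). At 33 h its share was 4.47% ± 0.305 in high-dose and 2.62% ± 0.162 in vehicle kidneys, so it had not returned to the vehicle share. Its mean level on the log2 scale, in which each transcript counts alike, was 0.0329 ± 0.0273 above vehicle at 33 h, after 0.72 ± 0.19 at 9 h.

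ENSCPOT00000040932.1 had the largest fading increase of the named transcripts, and it was carried by 3 animals. Vehicle kidneys held 1.61, 2.96, 4.92, 6.34 and 3.11 CPM at 9 h and 3.27, 4.18, 3.59, 3.87 and 5.58 at 33 h. High-dose kidneys held 158, 2.53, 74.1, 1.74 and 125 CPM at 9 h and 6.62, 6.24, 5.54, 8.02 and 4.64 at 33 h. Animals 39 and 41 were within the vehicle range. The fitted effect was 19.3-fold at 9 h (log2 4.27 ± 0.852, adjusted p = 0.001) and 1.51-fold at 33 h (0.59 ± 0.807, adjusted p = 0.61), and the difference was -3.68 ± 1.14 (edgeR adjusted p = 0.036). It did not pass by limma (-2.16, adjusted p = 0.33) or without vehicle animals 31 and 32 (-3.32, adjusted p = 0.12), and it was -4.37 without vehicle animals 58, 59 and 60.

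ENSCPOT00000026740.2 (gene ENSCPOG00000023588, matched to rat Entrez gene 24451) was raised in all 5 high-dose animals at 9 h. Vehicle kidneys held 196, 133, 104, 113 and 125 CPM at 9 h and 164, 61.2, 65.6, 75.5 and 176 at 33 h. High-dose kidneys held 1831, 1282, 1613, 1361 and 1578 CPM at 9 h and 182, 159, 238, 132 and 145 at 33 h. The groups were apart at 9 h and overlapped at 33 h. The effect was 11.4-fold at 9 h (3.51 ± 0.299, adjusted p = 3.4e-07) and 1.57-fold at 33 h, where it still passed (0.65 ± 0.274, adjusted p = 0.069), with a difference of -2.86 ± 0.392 (edgeR adjusted p = 0.00012).

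ENSCPOT00000025542.2, the transcript that dominated animal 59, had the largest difference among the named fading decreases. Its place depended on which 9 h vehicle animals were used. Vehicle kidneys held 16160, 19596, 53624, 167289 and 19316 CPM at 9 h and 13484, 12731, 20084, 13682 and 10562 at 33 h. High-dose kidneys held 13617, 12153, 16401, 16201 and 12954 CPM at 9 h and 48791, 23945, 16721, 22905 and 26500 at 33 h. Vehicle animals 58 and 59 were high at 9 h, and the other 3 were close to the high-dose range. The difference was 2.92 ± 0.712 on the log2 scale (edgeR adjusted p = 0.0093), with effects of -1.95 at 9 h and 0.97 at 33 h. Without animal 59 it was 1.91 (adjusted p = 0.0085) and the transcript was reversed (-0.93 and 0.98), and without animals 58, 59 and 60 it was 1.31 and the transcript was late. Without animals 31 and 32 it was 3.47 and the transcript was reversed. The same transcript weighed on the share of the 439 lowered transcripts in 9 h vehicle kidneys, which was 5.05% ± 2.97 of TPM with it and 2.29% ± 0.154 without it.

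ENSCPOT00000007936.3 was lowered at 9 h in all high-dose animals. Vehicle kidneys lay between 11.4 and 29.7 CPM at 9 h and high-dose kidneys between 1.25 and 6.85. At 33 h vehicle kidneys lay between 6.61 and 13.1 CPM and high-dose kidneys between 5.05 and 16.8, and the ranges overlapped. The effect went from 6.81-fold lower (-2.77 ± 0.452, adjusted p = 0.00024) to 1.11-fold lower (-0.15 ± 0.419, adjusted p = 0.82), with a difference of 2.62 ± 0.609 (edgeR adjusted p = 0.0069) and of 1.98 without vehicle animals 58, 59 and 60.

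Late responses were on average near the vehicle level at 9 h and away from it in all 5 high-dose animals at 33 h. The class was defined on these animals by that pattern, so the values describe it and are not evidence for it. The 1027 raised transcripts had a median high-dose effect of -0.00457 at 9 h and 0.56 at 33 h, and the 770 lowered ones had medians of 0.0344 and -0.51. A difference of 2-fold or more was seen in 443. The raised set made up 14.6% ± 1 of TPM in high-dose kidneys at 33 h, against 10.1% ± 0.575 in vehicle kidneys at 33 h, 10.3% ± 0.312 in high-dose kidneys at 9 h and 9.95% ± 1.29 in vehicle kidneys at 9 h (SD, n = 5 each). The lowered set made up 3.66% ± 0.315 in high-dose kidneys at 33 h and between 5.37% and 5.7% on average in the other 3 groups. Relative to vehicle of the same time, the mean log2 level of the raised set lay between 0.77 and 0.98 at 33 h in the 5 animals given the high dose, and between -0.0307 and 0.0635 at 9 h.

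ENSCPOT00000007632.3 was scarce in both vehicle groups and in high-dose kidneys at 9 h. Vehicle kidneys held 2.24, 0.875, 1.52, 0.63 and 1.17 CPM at 9 h and 1.5, 0.638, 0.95, 1.05 and 0.841 at 33 h. High-dose kidneys held 1.37, 1.36, 1.46, 0.769 and 1.92 CPM at 9 h and 14.4, 39, 15.3, 16.9 and 14 at 33 h. All 5 high-dose animals at 33 h were above every other animal of the 20, and animal 54 was the highest. The effect was 1.06-fold at 9 h (0.0801 ± 0.359, adjusted p = 0.89) and 19.8-fold at 33 h (4.31 ± 0.38, adjusted p = 1.3e-07), with a difference of 4.23 ± 0.511 (edgeR adjusted p = 3.8e-05) and of 3.83 without animal 54.

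ENSCPOT00000034328.1 behaved alike. It lay between 0.757 and 1.66 CPM in all vehicle animals and in the high-dose animals at 9 h. The 5 high-dose animals at 33 h lay between 16.7 and 41.5, with animal 54 again the highest. The effect was 1.13-fold at 9 h and 18.6-fold at 33 h, with a difference of 4.04 ± 0.361 on the log2 scale (edgeR adjusted p = 2.9e-06).

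ENSCPOT00000005021.3, a short transcript model of 192 bases, was nearly lost at 33 h. Vehicle kidneys held 42.9, 41.8, 45.7, 32.4 and 31.3 CPM at 9 h and 40.2, 39, 48.7, 21.1 and 30.8 at 33 h. High-dose kidneys held 17.6, 42.9, 17.7, 30.4 and 18.8 CPM at 9 h and 0.819, 0.199, 0.713, 0.717 and 2.36 at 33 h. At 9 h 4 of the 5 high-dose animals were below all vehicle animals of that time and animal 39 was level with them. The effect was 1.53-fold lower at 9 h (-0.61 ± 0.316, adjusted p = 0.15) and 38.5-fold lower at 33 h (-5.27 ± 0.417, adjusted p = 4.8e-08), a difference of -4.65 ± 0.518 (edgeR adjusted p = 1.9e-05). Without animal 39, or without high-dose animal 57 at 33 h (-5.27), the 9 h effect passed and the transcript was growing.

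ENSCPOT00000033672.1 had the most precise of the named late decreases. Vehicle kidneys lay between 110 and 181 CPM at 9 h and high-dose kidneys between 88.5 and 143. At 33 h vehicle kidneys lay between 78.8 and 123 CPM and high-dose kidneys between 3.78 and 8.47, far below. The effect was 1.21-fold lower at 9 h (-0.28 ± 0.176, adjusted p = 0.24) and 15.2-fold lower at 33 h (-3.93 ± 0.205, adjusted p = 2.2e-09), with a difference of -3.64 ± 0.264 (edgeR adjusted p = 2.2e-07).

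Reversed responses were small on each side of vehicle. The 228 transcripts that turned upward had a median effect of -0.24 at 9 h and 0.29 at 33 h, and the 179 that turned downward had medians of 0.35 and -0.33. The effect was larger at 33 h in 225 of the 407 and larger at 9 h in 182. A difference of 2-fold or more was seen in 86. In the animals on which the class was defined, the mean log2 level of the first set, relative to vehicle, lay between -0.40 and -0.21 in the 5 high-dose animals sampled at 9 h and between 0.40 and 0.45 in the other 5, sampled at 33 h. That of the second set lay between 0.40 and 0.55 at 9 h and between -0.53 and -0.44 at 33 h.

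ENSCPOT00000003010.3 had the largest upward turn of the named transcripts, with a weak first leg. Vehicle kidneys held 1.39, 2.23, 10.4, 5.08 and 1.25 CPM at 9 h and 1.92, 7.05, 1.76, 7.28 and 8.1 at 33 h. High-dose kidneys held 1.25, 2.38, 1.52, 1.78 and 1.24 CPM at 9 h and 18.3, 48.1, 21.7, 25.1 and 14.9 at 33 h. The 9 h groups overlapped, and all 5 high-dose animals at 33 h were above all vehicle animals. The effect was 2.48-fold lower at 9 h (-1.31 ± 0.576, adjusted p = 0.09) and 4.88-fold higher at 33 h (2.29 ± 0.545, adjusted p = 0.0024), a difference of 3.60 ± 0.79 (edgeR adjusted p = 0.0047). With 1 animal left out in turn it was reversed 12 times of 20 and late otherwise, for example without vehicle animal 58, where the difference was 2.90. Without vehicle animals 58, 59 and 60 it was late, with a difference of 2.46.

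ENSCPOT00000043002.1 (gene ENSCPOG00000002016, matched to rat Entrez gene 29366) turned with little spread. Vehicle kidneys held 68.2, 68.9, 66.6, 74.4 and 62.9 CPM at 9 h and 68.5, 70, 55.6, 66.1 and 69 at 33 h. High-dose kidneys held 42.8, 63.6, 38.9, 57.7 and 51 CPM at 9 h and 244, 252, 215, 200 and 212 at 33 h. Only animal 39 reached into the vehicle range at 9 h. The effect was 1.35-fold lower at 9 h (-0.43 ± 0.11, adjusted p = 0.0057) and 3.38-fold higher at 33 h (1.76 ± 0.112, adjusted p = 8.3e-09), a difference of 2.19 ± 0.157 (edgeR adjusted p = 2.2e-07).

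ENSCPOT00000023086.2 had the largest downward turn of the named transcripts. Vehicle kidneys held 1.22, 10.9, 2.63, 12.6 and 12.6 CPM at 9 h and 46.4, 12.5, 17.8, 27.8 and 86.4 at 33 h. High-dose kidneys held 20.4, 39.2, 16.6, 87 and 16.7 CPM at 9 h and 3.74, 2.16, 5.03, 2.97 and 3.44 at 33 h. High-dose animals were all above vehicle at 9 h and all below it at 33 h. The difference was -5.64 ± 0.927 on the log2 scale (edgeR adjusted p = 0.0005), and -5.01 without high-dose animal 41, made up of -3.38 ± 0.677 between times in high-dose animals and 2.26 ± 0.634 in vehicle animals (adjusted p = 0.3 for the latter).

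ENSCPOT00000047612.1 went from raised to lowered. Vehicle kidneys lay between 9.45 and 15.2 CPM at 9 h and high-dose kidneys between 65.4 and 127. At 33 h vehicle kidneys lay between 8.9 and 22.4 CPM and high-dose kidneys between 2.79 and 11.6, with an overlap. The effect was 7.95-fold higher at 9 h (2.99 ± 0.311, adjusted p = 3.2e-06) and 2.38-fold lower at 33 h (-1.25 ± 0.31, adjusted p = 0.0032), a difference of -4.24 ± 0.436 (edgeR adjusted p = 8.5e-06).

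The low-dose animals, which took no part in the definition of the classes, gave a separate measurement of the same transcripts. In them 33 h was compared with 9 h directly, in a fit of these 10 animals, so any difference between times that vehicle animals shared is included. Over all transcripts tested 303 differed (1.54%), 101 higher (0.512%) and 202 lower (1.02%) at 33 h. Among the fading transcripts 128 of 1118 differed (11.4%), and among the reversed ones 53 of 407 (13%). Among the late ones 35 of 1797 differed (1.95%), and among the growing ones 0 of 643 by edgeR or limma in these 10 animals. In the edgeR fit of all 30 animals, which called 2440 in all (12.4%), the counts were 599 fading (53.6%), 217 reversed (53.3%), 462 late (25.7%) and 72 growing (11.2%). That fit's estimate of spread also used the animals on which the classes were defined, so those shares are not a separate measurement. By DESeq2, which called 1865 in all (9.45%), the counts were 462 fading (41.3%), 182 reversed (44.7%), 336 late (18.7%) and 35 growing (5.44%). At an unadjusted edgeR p under 0.05 they were 651, 227, 534 (29.7%) and 72 (11.2%), of 3356 in all (17%). The share of late transcripts was thus near that of all transcripts in the 10-animal edgeR fit and above it in the 30-animal fit, by DESeq2 and at the unadjusted p.

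Within the fading, late and reversed classes the edgeR calls in low-dose animals all ran in the direction of the high-dose difference between times. A further 30 higher and 57 lower calls belonged to transcripts outside the 4043. Of the fading transcripts raised at 9 h by the high dose, 107 were lower and 0 were higher at 33 h in low-dose kidneys, and of those lowered at 9 h, 21 were higher and 0 lower. Of the reversed transcripts, 28 of the upward and 25 of the downward ones differed, and of the late ones 22 and 13. The low-dose count itself was unstable, from 43 without animal 37 to 1267 without animal 33. The fading transcripts ranged from 25 to 419 over the same 10 fits, the reversed ones from 7 to 128, the late ones from 2 to 131 and the growing ones from 0 to 11.

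The size of the change between times in low-dose animals was close to that in high-dose animals for the fading class and smaller for the others. The median difference between 33 and 9 h was -0.32 in low-dose and -0.36 in high-dose kidneys for fading transcripts raised at 9 h, and 0.22 and 0.28 for those lowered at 9 h. It was 0.20 and 0.53 for raised late transcripts and -0.14 and -0.46 for lowered ones. It was 0.21 and 0.79 for raised growing transcripts and -0.0416 and -0.80 for lowered ones, where 63.3% of the transcripts had the sign of the high-dose difference. For reversed transcripts it was 0.24 and 0.45 upward, and -0.29 and -0.57 downward. The high-dose values come from the animals on which the classes were defined, and the difference between doses was not tested.

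**Figure D5:**
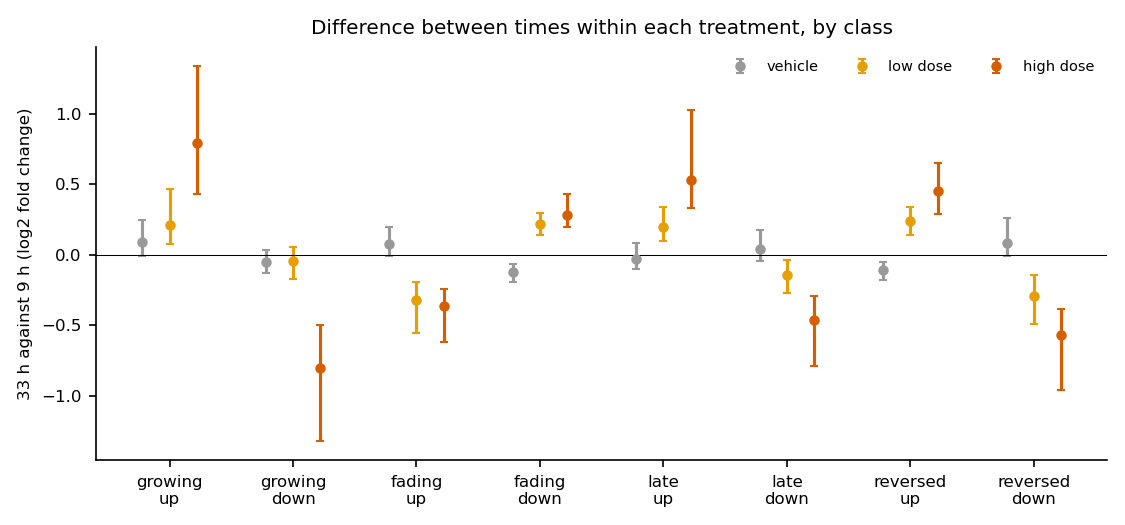
Fitted difference between 33 and 9 h (y axis, log2 fold change) within vehicle, low-dose and high-dose animals, by class and direction, as the median over the transcripts of the class with bars from the lower to the upper quartile of transcripts. Low-dose and high-dose medians are close for fading transcripts (-0.32 and -0.36 for those raised at 9 h) and far apart for growing ones (-0.0416 and -0.80 for those lowered).

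The low-dose animals were also uneven among themselves. At 33 h the mean log2 level of the raised growing transcripts, relative to vehicle of that time, was 1.14, -0.0819, 0.34, 0.45 and 0.85 in animals 48 to 52, and that of the raised late transcripts was 0.64, 0.0245, 0.25, 0.31 and 0.48. Animal 49 was at the vehicle level in both sets and animal 48 was the highest in both. At 9 h animals 33 and 34 were nearer to vehicle than animals 35, 36 and 37, with -0.18 and -0.21 against -0.78, -0.70 and -0.86 for the lowered growing transcripts. Of the named transcripts, ENSCPOT00000026740.2 differed between times in low-dose kidneys by -3.65 ± 0.337 (edgeR adjusted p = 0.0039) and ENSCPOT00000043002.1 by 0.87 ± 0.197 (adjusted p = 0.092). The other 14 did not pass there.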

How the data were processed

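Kidney RNA of 30 animals was sequenced by the authors as stranded poly-A libraries with 75-base paired reads. Per the labels and the study's methods, the authors quantified transcripts with kallisto 0.42.4, and the deposited files give estimated counts and TPM per Ensembl transcript. The transcriptome release is not given in the sources used here. Estimated counts can split reads between similar transcripts, so values of isoforms or paralogs are uncertain.

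Estimated counts were rounded, filtered by expression (filterByExpr over the 6 groups) to 19729 transcripts, scaled by TMM and fitted with edgeR 4.0.16 (quasi-likelihood, R 4.3.3) on the 4 groups of 5. The contrast was the high-dose effect at 33 h minus that at 9 h, with Benjamini-Hochberg adjusted p of at most 0.1, the threshold of the study, which used Sleuth. Errors of log2 fold changes are standard errors derived from the fold change and its F statistic. DESeq2 1.42.0, limma 3.58.1, RLE scaling, other filters, thresholds and sets of animals were alternatives. Animals are taken as separate samples, as labelled. No pair of animals in a group agreed within sampling noise (lowest chi-square per degree of freedom 15.7, over the 40 pairs of the 4 groups). Such a check can find a repeated library but cannot show that samples came from separate animals. The scripts were tested on simulated data. Class levels are means of log2 CPM with a prior count of 2.

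Named transcripts were the 2 with the largest contrast per class and direction that reached a mean log2 CPM of 1 and passed whichever of the 20 animals was left out. The members, lists and rules were chosen with earlier results of these data known. Planned gene lists and cell type markers were not run: they are lists of gene symbols, and no source used here pairs the identifiers with symbols. Gene and rat gene numbers of 3 transcripts follow the pairing given with the study, which was readable for 2505 transcripts and was used for nothing else. No sequences were used.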

Additional observations from a re-analysis of the deposited data

Results flagged for a closer look

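The effect of the high dose differed between 33 and 9 h in 4043 transcripts by a test of the difference itself, and so did those of the 16 named ones. On the log2 scale the differences were 3.88 (ENSCPOT00000044672.1), 3.78 (ENSCPOT00000041519.1), -6.74 (ENSCPOT00000009386.3) and -4.32 (ENSCPOT00000025515.2) among growing responses. They were -3.68 (ENSCPOT00000040932.1), -2.86 (ENSCPOT00000026740.2), 2.92 (ENSCPOT00000025542.2) and 2.62 (ENSCPOT00000007936.3) among fading responses. They were 4.23 (ENSCPOT00000007632.3), 4.04 (ENSCPOT00000034328.1), -4.65 (ENSCPOT00000005021.3) and -3.64 (ENSCPOT00000033672.1) among late responses. They were 3.60 (ENSCPOT00000003010.3), 2.19 (ENSCPOT00000043002.1), -5.64 (ENSCPOT00000023086.2) and -4.24 (ENSCPOT00000047612.1) among reversed responses.

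In 9 of 100 groups of 5 values checked, 1 animal lay far from the other 4 by Dixon's criterion, where chance gives about 1 in 20, or 5. Vehicle animal 59 at 9 h held 167289 CPM of ENSCPOT00000025542.2 (next 53624). High-dose animal 54 at 33 h was highest for both named late increases, with 39 CPM of ENSCPOT00000007632.3 (next 16.9) and 41.5 CPM of ENSCPOT00000034328.1 (next 20.4). High-dose animal 57 at 33 h held 2.36 CPM of ENSCPOT00000005021.3 (next 0.819). Low-dose animal 48 at 33 h held 19.2 CPM of ENSCPOT00000034328.1 (next 4.74), low-dose animal 49 at 33 h held 84.7 CPM of ENSCPOT00000047612.1 (next 27.1) and low-dose animal 33 at 9 h held 7.77 CPM of ENSCPOT00000003010.3 (next 2.45). Vehicle animal 43 at 33 h held 69.2 CPM of ENSCPOT00000041519.1 (next 46.6), and vehicle animal 45 at 33 h held 55.6 CPM of ENSCPOT00000043002.1, with 66.1 the next lowest.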

How the results depend on the processing

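The 4043 calls became 4463 by DESeq2, 3999 by limma, 4050 with RLE scaling, 3768 without the filter and 3550 with all 30 animals in the fit. No named transcript changed direction in any alternative. Of 448 values, 446 kept their side of the threshold, the exceptions being ENSCPOT00000040932.1 by limma and without animals 31 and 32. Of the 28 alternatives for each named transcript, 20 left out a single animal. Naming required passing in all of those fits, so their values could not change side. Only the values of the other alternatives were free to do so. Without vehicle animals 58, 59 and 60, 1320 transcripts were lower, 176 growing, 646 fading, 267 reversed, 4547 called at 9 h and 2 between times in vehicle animals, and 58.9% of calls were higher, against 49.6%. Without 31 and 32 the vehicle count was 452. At an adjusted p of at most 0.05, 1357 were lower, 381 growing, 709 fading and 237 reversed. With a contrast of at least 2-fold, 213 were growing, 163 fading, 443 late and 86 reversed. Divided by fitted effects alone, 1465 were growing, 497 fading and 2081 reversed, and late has no value. The vehicle count was 180 by DESeq2. The low-dose count of 303 was 1865 by DESeq2, 153 without the filter, 2440 with all 30 animals and 69 at 0.05. The cause of these shifts was not tested, beyond fewer animals or stricter criteria. Alternatives for single times and for the time differences were added after the data were seen.

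Leaving out each animal in turn gave 3452 to 4383 calls (1772 to 2179 higher, 1662 to 2204 lower), 514 to 714 growing, 805 to 1602 fading, 1568 to 2025 late and 330 to 502 reversed. It gave 6527 to 8582 at 9 h, 8462 to 9371 at 33 h, 0 to 8 between times in vehicle animals (8 without animal 32), 6242 to 7016 in high-dose animals and 43 to 1267 in low-dose animals. No paired analysis was possible because no animal number is shared between groups. Depth limits values near 0, such as 6 counts of ENSCPOT00000009386.3.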
